A study of Mus musculus with 34 samples.

Results

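The urea cycle is the liver pathway that turns the ammonia released by amino acid breakdown into urea. In mitochondria, N-acetylglutamate synthase (Nags) makes the activator that carbamoyl-phosphate synthetase (Cps1) needs to fix ammonia. Argininosuccinate synthase (Ass1), argininosuccinate lyase (Asl) and arginase (Arg1) complete the cycle in the cytosol, and the ornithine carrier encoded by Slc25a15 returns ornithine to the mitochondrion. The genes are expressed chiefly in hepatocytes, and HNF4α, a nuclear receptor that maintains the hepatocyte gene program, is a known regulator of ureagenesis. HDAC3 is a histone deacetylase that works in corepressor complexes and does not bind DNA itself, and PROX1 is a homeodomain protein that acts as a corepressor in liver.

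The HDAC3, PROX1 and HNF4α peaks around these 6 genes were described from chromatin immunoprecipitation with sequencing (ChIP-seq) of whole mouse liver. A peak was assigned to a gene when its centre lay between 50 kb upstream of the transcription start site (TSS) and 2 kb past the gene end. This gave 44 of the 28631 distinct HDAC3 and PROX1 peaks and 31 of the 24253 HNF4α peaks. No peak fell into the windows of more than 1 of the genes. The genes were listed by pathway and not by a measured value, but earlier results of these data were known when the list was chosen.

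Livers came from male C57B/6 mice that were 10 weeks old, taken at zeitgeber time (ZT) 10, the hours counted from lights on. HDAC3 and PROX1 were profiled in 3 livers each labelled Control. HNF4α was profiled in 2 livers labelled HNF4A_floxed, which the study describes as Hnf4α fl/fl animals that received a control AAV8 virus expressing Egfp from the hepatocyte promoter TBG. The HNF4α list is thus from other animals than the HDAC3 and PROX1 lists. The study pooled the libraries of a factor before calling peaks against IgG, so there is 1 list per factor, with no values per animal and no read depth. No replicate error exists for any count below, no test was made, and intervals are 95% Wilson intervals that cover counting error only.

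A peak that both the HDAC3 and the PROX1 list held at identical coordinates is called co-bound. The study's methods define shared peaks otherwise, by an overlap of at least 50% together with a minimum read density of the other factor, which may lie under that factor's own limit for a peak. In the deposited lists, 0 pairs of HDAC3 and PROX1 peaks overlapped by 50% or more at other coordinates, and 1 pair overlapped by less. Of the 28631 peaks, 20039 were co-bound, 7384 were PROX1-only and 1208 were HDAC3-only. Each HDAC3 or PROX1 peak was 200 bp wide. HNF4α was taken to be present where one of its own peaks spanned 50% or more of an HDAC3 or PROX1 peak. Signal strength is known for HNF4α alone, as the score that the peak caller HOMER gave each peak. Scores in the HNF4α list ran from 20.3 to 160.2 with a median of 41.9. Coordinates are in the mouse build mm9 (NCBIM37), and gene structures are those of GENCODE.

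The sequences below are those of the strongest HNF4α-bound co-bound peak of each gene and of co-bound peaks at promoters, read from the mm9 genome on the strand of the gene. Capitals mark a match to the HNF4α consensus with at most 2 mismatches or an exact match to the C/EBP motif TTGCNNAA on either strand. A sequence with no capitals holds neither. The strongest HNF4α-bound peak of 5 genes is shown first; that of Ass1, chr2:31315919-31316118, lies in an exon that is untranslated in 1 annotated transcript of the neighbouring gene Hmcn2 and is not printed.
Cps1 upstream peak, chr1:67163245-67163444, plus strand: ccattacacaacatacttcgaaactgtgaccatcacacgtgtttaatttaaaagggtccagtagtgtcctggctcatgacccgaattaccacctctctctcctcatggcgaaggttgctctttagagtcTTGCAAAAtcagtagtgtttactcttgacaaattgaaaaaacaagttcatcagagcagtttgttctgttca
Asl upstream peak, chr5:130509953-130510152, minus strand: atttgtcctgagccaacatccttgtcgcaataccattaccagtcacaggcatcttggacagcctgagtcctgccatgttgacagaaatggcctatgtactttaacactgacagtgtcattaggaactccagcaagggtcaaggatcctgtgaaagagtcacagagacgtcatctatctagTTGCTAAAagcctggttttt
Arg1 upstream peak, chr10:24671526-24671725, minus strand: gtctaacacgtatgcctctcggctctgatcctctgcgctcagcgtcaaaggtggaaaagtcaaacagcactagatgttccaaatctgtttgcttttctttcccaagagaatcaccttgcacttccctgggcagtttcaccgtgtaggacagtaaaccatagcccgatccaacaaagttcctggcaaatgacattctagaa
Nags intron 1 peak, chr11:102007522-102007721, plus strand: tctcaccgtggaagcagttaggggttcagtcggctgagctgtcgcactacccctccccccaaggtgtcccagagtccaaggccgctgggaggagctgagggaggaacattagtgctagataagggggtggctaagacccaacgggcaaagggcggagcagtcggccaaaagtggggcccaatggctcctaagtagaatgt
Slc25a15 intron 2 peak, chr8:23501276-23501475, minus strand: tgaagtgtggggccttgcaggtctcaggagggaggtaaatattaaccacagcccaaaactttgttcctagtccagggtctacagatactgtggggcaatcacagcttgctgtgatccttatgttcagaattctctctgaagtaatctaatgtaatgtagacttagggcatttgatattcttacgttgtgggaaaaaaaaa
The Nags peak is also its promoter peak, and the co-bound promoter peaks of Ass1 and Arg1 follow.
Ass1 promoter, chr2:31325241-31325440, plus strand: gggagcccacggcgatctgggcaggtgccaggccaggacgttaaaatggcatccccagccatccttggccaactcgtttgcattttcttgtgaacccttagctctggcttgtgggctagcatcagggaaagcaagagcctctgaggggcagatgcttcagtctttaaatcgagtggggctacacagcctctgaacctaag
Arg1 promoter, chr10:24647277-24647476, minus strand: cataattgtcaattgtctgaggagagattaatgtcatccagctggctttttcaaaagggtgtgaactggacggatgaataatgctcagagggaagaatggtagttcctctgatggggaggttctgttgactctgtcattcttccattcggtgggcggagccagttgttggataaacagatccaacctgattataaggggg
As a contrast chosen after the values were seen, the next 3 peaks do hold the HNF4α consensus. The first 2 are co-bound peaks with HNF4α, and the last is an HNF4α peak in Cps1 that touched no HDAC3 or PROX1 peak.
Asl intron 1 peak, chr5:130498309-130498508, minus strand: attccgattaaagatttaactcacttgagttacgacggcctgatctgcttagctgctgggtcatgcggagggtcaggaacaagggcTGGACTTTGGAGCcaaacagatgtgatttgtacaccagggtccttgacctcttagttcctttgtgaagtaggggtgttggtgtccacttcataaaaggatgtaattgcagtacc
Arg1 intron 1 peak, chr10:24642898-24643097, minus strand: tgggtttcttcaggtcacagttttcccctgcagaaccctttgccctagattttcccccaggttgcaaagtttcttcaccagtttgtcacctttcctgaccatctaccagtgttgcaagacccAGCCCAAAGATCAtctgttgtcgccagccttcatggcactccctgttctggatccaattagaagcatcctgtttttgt
Cps1 intron 1 HNF4α peak, chr1:67174922-67175087, plus strand: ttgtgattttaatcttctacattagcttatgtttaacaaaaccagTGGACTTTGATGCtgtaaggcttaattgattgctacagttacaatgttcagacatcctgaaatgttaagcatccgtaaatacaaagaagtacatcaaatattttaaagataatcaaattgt

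All 6 urea cycle genes had at least 1 co-bound peak in their window, where 38.4% of the 22367 protein-coding genes did. HNF4α was present at 1 or more of these co-bound peaks at all 6, and at 31.1% of all genes. The 44 peaks comprised 36 co-bound, 7 PROX1-only and 1 HDAC3-only peak. Cps1, Ass1, Asl and Slc25a15 each had 7 co-bound peaks, Arg1 had 6 and Nags had 2. Over all protein-coding genes, the median was 0 and the mean was 1.21 co-bound peaks, and 95.9% of genes had fewer than 7. For Arg1 and Nags, 94.2% and 74.7% of genes had fewer co-bound peaks. The background holds genes of every expression level, and transcript levels were not analysed here.

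**Figure D1:**
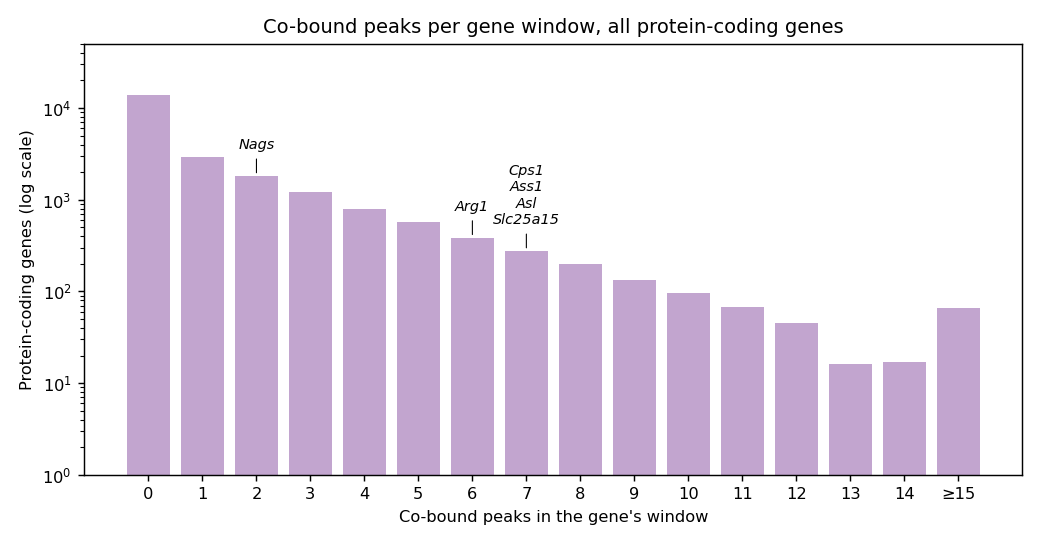
Number of co-bound peaks per gene window (x axis, 15 or more in the last bar) against the number of protein-coding genes (y axis, log scale), with the urea cycle genes marked. Most genes have 0, Nags sits at 2, Arg1 at 6 and the other 4 genes at 7.

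Window length differed between the genes because gene length did. Per 10 kb of window, co-bound peaks were densest at Asl, with 1.06, followed by Arg1 with 0.934 and Slc25a15 with 0.932. The first place of Asl rests on peaks nearer to the TSS of other genes. When the gene had to have the nearest coding TSS, Asl kept 1 co-bound peak, Arg1 6 and Slc25a15 7. Ass1 had 0.683, Cps1 0.437 and Nags 0.357 per 10 kb, all above the mean of 0.138 over all genes. Cps1 thus changes place when length is considered, from a tie for the most peaks to the second lowest density.

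HNF4α covered 21 of the 36 co-bound peaks, or 58.3% (interval 42.2 to 72.9%). Over all co-bound peaks the share was 61.3%, which lies inside that interval. The share was uneven between the genes. Asl had HNF4α at 6 of its 7 co-bound peaks, Cps1 at 5 of 7, Arg1 at 4 of 6, Slc25a15 at 4 of 7 and Nags at 1 of 2. At Ass1 only 1 of 7 co-bound peaks had HNF4α, so Ass1 combined a count of co-bound peaks equal to the highest with the same number of HNF4α-bound ones as Nags. With Ass1 left out, the share was 69.0%.

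**Figure D2:**
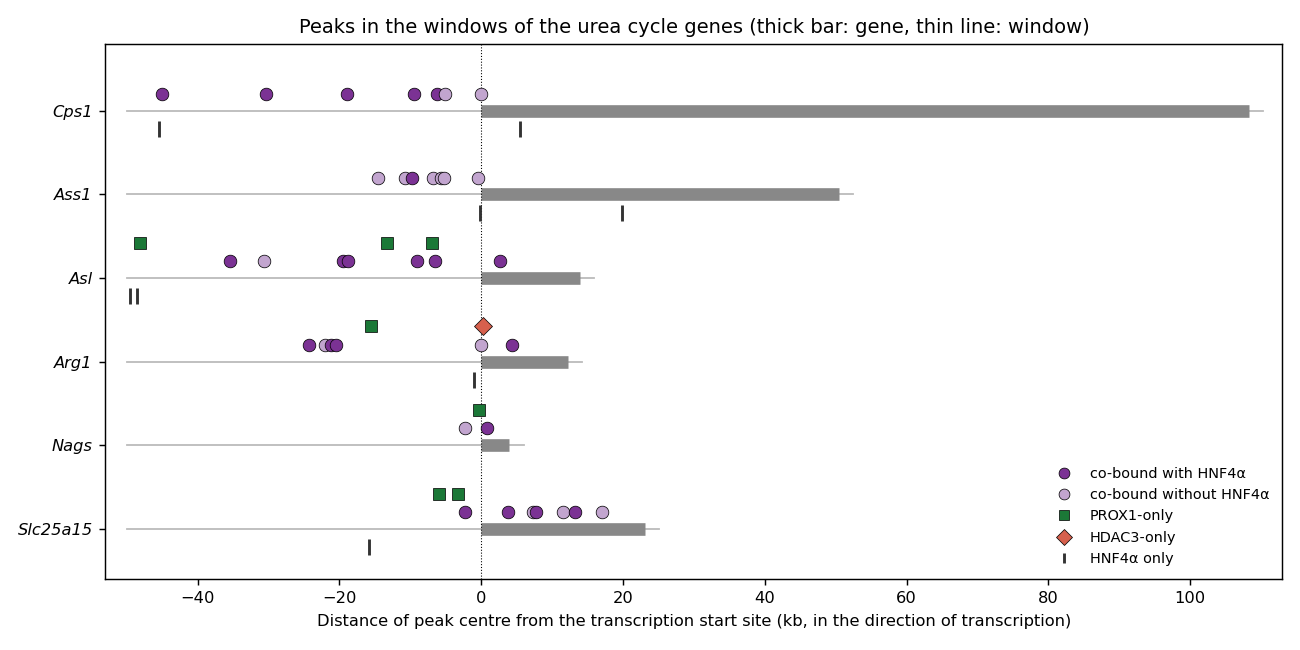
Peak centres by distance from the TSS in kb (x axis, negative upstream) at each gene, with circles for co-bound peaks (dark with HNF4α, pale without), squares for PROX1-only, a diamond for HDAC3-only and ticks under the line for HNF4α peaks that touch no HDAC3 or PROX1 peak. Cps1 and Ass1 have all 7 co-bound peaks upstream and none within their long gene bodies, whereas 6 of the 7 of Slc25a15 lie inside the gene.

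The position of the peaks divided the genes. Of the 36 co-bound peaks, 27 lay upstream of the TSS and 9 inside a gene. At Cps1, whose product catalyses the rate-limiting entry of ammonia, all 7 lay upstream, from 45.0 kb to 69 bp before the TSS, and the 108 kb gene body held none. At Ass1, which joins citrulline and aspartate, all 7 lay within the 14.6 kb before the TSS and none lay in the 50.5 kb gene body. At Slc25a15 the pattern was the opposite, with 6 of 7 co-bound peaks in introns 2 to 4, between 3.82 and 17.1 kb past the TSS. By distance, 4 co-bound peaks lay within 1 kb of the TSS, 16 at 1 to 10 kb and 16 beyond 10 kb. HNF4α was present at 1 of the 4, 10 of the 16 and 10 of the 16, respectively.

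Promoters were considered next. A co-bound peak centred within 1 kb of the TSS was found at 4 of the 6 genes (Cps1, Ass1, Arg1 and Nags), where 5.06% of all protein-coding genes had one. The centres lay 69 bp upstream at Cps1, 387 bp upstream at Ass1, 100 bp upstream at Arg1 and 794 bp downstream at Nags. The Nags peak in intron 1 was the only 1 of the 4 with HNF4α. Among all co-bound peaks within 1 kb of a coding TSS, 54.7% had HNF4α, against 61.9% of those farther away. An HNF4α peak was present at the Ass1 promoter as well, centred 202 bp upstream, but it had a score of 21.2 and did not touch the co-bound peak beside it. At Arg1 the nearest HNF4α peak was centred 1015 bp upstream with a score of 25.0 and likewise stood alone.

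HNF4α scores were higher, with overlapping ranges, at peaks that met HDAC3 or PROX1 than at those that did not. The 23 HNF4α peaks that touched an HDAC3 or PROX1 peak had scores of 23.6 to 124.9, with a median of 55.1. The 8 that touched none, 25.8% of 31 (interval 13.7 to 43.2%), had scores of 20.3 to 34.4, with a median of 26.85. In the whole list 31.4% of HNF4α peaks touched none, and these had a median score of 32.5, so the lower scores of such peaks were a property of the list as a whole. At the 21 co-bound peaks with HNF4α the median score was 59.4, and 14 of them (66.7%) were above the list median. Over all co-bound peaks with HNF4α the median was 52.3 and 65.3% were above the list median, so the share at the urea cycle genes was near the background.

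**Figure D3:**
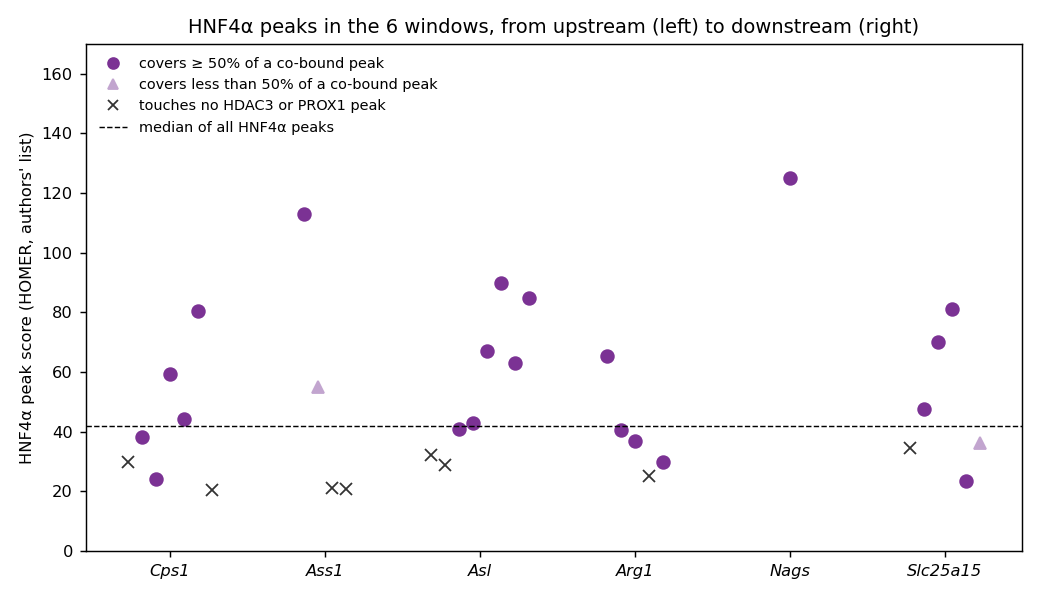
HNF4α peak score (y axis) for the 31 HNF4α peaks, grouped by gene and ordered from upstream to downstream, with circles for peaks covering at least 50% of a co-bound peak, triangles for less and crosses for no HDAC3 or PROX1 peak. The crosses lie between 20.3 and 34.4, under the list median of 41.9, and the highest circle is the Nags peak at 124.9.

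The strongest HNF4α peak of all was at Nags, with a score of 124.9 that ranked 106 of 24253. Ass1 followed with 113.1, then Asl with 90.0, Slc25a15 with 81.0, Cps1 with 80.6 and Arg1 with 65.5. Each of these 6 was the HNF4α peak at a co-bound site, and even the lowest had a score above that of 79.1% of the list. They are the highest of 1 (Nags) to 8 (Asl) HNF4α peaks per window, whereas the list holds single peaks. The highest peaks in the windows of other genes were not compared. Nags and Ass1, the genes with the highest HNF4α scores, were those with the fewest HNF4α-bound co-bound peaks, 1 each.

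At Cps1 (ENSMUSG00000025991.8, chr1:67169600-67277833, plus strand, 38 exons), the co-bound peaks formed an array whose gaps shortened from 14.7 to 1.20 kb over the 6 farthest peaks. Their centres lay 45.0, 30.4, 18.9, 9.52, 6.26 and 5.05 kb and 69 bp upstream. The farthest 5 had HNF4α, with scores of 38.2, 24.0, 59.4, 44.3 and 80.6 in that order, and the nearest 2 did not. All 7 were annotated intergenic. The farthest was closer to the TSS of Lancl1, and the other 6 were nearest to Cps1. An HNF4α peak with the lowest score of the list, 20.3, lay 5.40 kb into intron 1 of Cps1 without HDAC3 or PROX1.

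At Ass1 (ENSMUSG00000076441.4, chr2:31325727-31376192, plus strand, 16 exons), the co-bound peaks lay 14.6, 10.8, 9.71, 6.74, 5.71 and 5.31 kb and 387 bp upstream. Those at 14.6, 10.8 and 9.71 kb fell in introns 9 and 13 and exon 15 of Hmcn2, a gene on the same strand, but Ass1 had the nearest TSS for all 7. HNF4α covered 75% of the peak at 9.71 kb, with the score of 113.1. It covered 42% of the peak at 5.31 kb, with a score of 55.1, which left that peak just outside the limit of 50%. The remaining 5 were not touched by any HNF4α peak. The promoter peak and its HNF4α neighbour at 202 bp are separate intervals, so their adjacency did not count as shared binding. A further HNF4α peak with a score of 20.7 lay in intron 7, 19.9 kb into the gene.

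At Asl (ENSMUSG00000025533.9, chr5:130487128-130501002, minus strand, 16 exons), which splits argininosuccinate into arginine and fumarate, 10 peaks were counted. The TSS of Crcp lies 4.16 kb away on the other strand, and 9 of the 10 peaks were nearer to the TSS of Crcp or Tpst1 than to that of Asl. Their assignment to Asl therefore rests on the 50 kb window alone. The exception was the peak in intron 1 of Asl, 2.59 kb past the TSS, with an HNF4α score of 84.8. The co-bound peaks at 6.50, 9.05, 18.8, 19.5 and 35.4 kb upstream had HNF4α scores of 63.1, 90.0, 66.9, 42.9 and 41.0. Only the co-bound peak at 30.7 kb, in intron 5 of Crcp, had no HNF4α. The peak at 19.5 kb was 58.5% covered, close to the limit. The 3 PROX1-only peaks lay 6.97, 13.3 and 48.1 kb upstream, the last 96 bp before the TSS of Tpst1.

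Arg1 (ENSMUSG00000019987.8, chr10:24635014-24647276, minus strand, 8 exons), which releases urea from arginine, was the only gene of the 6 with an HDAC3-only peak. That peak, chr10:24646991-24647190, was centred 186 bp into the gene in intron 1, and 86 bp separated it from the co-bound promoter peak. A window with an HDAC3-only peak was found at 7.40% of all protein-coding genes, and 14.0% of HDAC3-only peaks in the whole list had HNF4α. The Arg1 peak had none. Farther upstream, 4 co-bound peaks clustered at 20.5, 21.2, 22.1 and 24.3 kb, with 620, 910 and 2286 bp between neighbouring centres. The peaks at 20.5, 21.2 and 24.3 kb had HNF4α scores of 36.8, 40.5 and 65.5, and the peak at 22.1 kb had no HNF4α. At 21.2 kb, HNF4α covered 52% of the peak, the smallest share that still counted. The remaining co-bound peak with HNF4α, 4.28 kb into intron 1, had a score of 29.7. A PROX1-only peak lay 15.5 kb upstream, and Arg1 had the nearest TSS for all 8 peaks.

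Nags (ENSMUSG00000048217.5, chr11:102006827-102010791, plus strand, 7 exons), the smallest of the genes at 3.96 kb, had 3 peaks, all close to the TSS. A co-bound peak without HNF4α lay 2.36 kb upstream, a PROX1-only peak 346 bp upstream and the co-bound peak with HNF4α 794 bp downstream. HNF4α covered 77.5% of the last, and no other HNF4α peak was in the window.

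At Slc25a15 (ENSMUSG00000031482.8, chr8:23486026-23509093, minus strand, 7 exons), the co-bound peaks began 2.22 kb upstream, where HNF4α had a score of 47.6. Inside the gene they lay 3.82, 7.37, 7.72, 11.5, 13.2 and 17.1 kb past the TSS. HNF4α was present at 3.82, 7.72 and 13.2 kb, with scores of 70.2, 81.0 and 23.6. The peaks at 7.37 and 7.72 kb were 352 bp apart by their centres, and HNF4α covered 84% of the one and none of the other. At 17.1 kb an HNF4α peak with a score of 36.3 covered 33.5% of the co-bound peak, which fell short of the limit. The 2 PROX1-only peaks lay 3.28 and 6.01 kb upstream.

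None of the 7 PROX1-only peaks, at Asl (3), Slc25a15 (2), Arg1 (1) and Nags (1), had HNF4α, a share of 0% whose interval reaches 35.4%. Over all PROX1-only peaks, 36.7% had HNF4α, just above that bound. Only 4 of the 7 remained when the gene had to have the nearest coding TSS, so these few peaks do not settle a difference from the background. PROX1-only peaks were thus present at 4 of the 6 genes, where 25.2% of all genes had one. Cps1 and Ass1 had neither PROX1-only nor HDAC3-only peaks.

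The sequences under the peaks were then searched on both strands. The HNF4α consensus, 13 bases long, was read from the motif logo of the study, and up to 2 mismatches were allowed. It occurred in 7 of the 36 co-bound peaks, 19.4% (interval 9.75 to 35.0%), against 31.2% of all co-bound peaks. Among the 21 with HNF4α it occurred in 3, 14.3% (interval 4.98 to 34.6%), against 41.4% of all co-bound peaks with HNF4α. Among the 15 without HNF4α it occurred in 4, or 26.7%, against 15.1% over all such peaks. None of the 6 peaks that were the strongest HNF4α-bound co-bound peak of their own gene held it. These 6 include the Ass1 peak whose sequence is not printed. The Asl intron 1 peak, second at its gene, did hold it. Its score of 84.8 was above those of the strongest such peaks of Slc25a15, Cps1 and Arg1. A match describes letters in the window and does not show where a factor sat, and the absence of a match shows only that these letters were not found.

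The 3 HNF4α-bound co-bound peaks with the consensus were the Asl peaks at 2.59 kb in intron 1 and 35.4 kb upstream and the Arg1 peak at 4.28 kb in intron 1. The Asl intron 1 match had 1 mismatch and contained the exact core CAAAGTCCA, read on the plus strand of the genome. That core, which overlaps the consensus, occurred in this 1 peak of 36, against 2.84% of all co-bound peaks. In the 200 bp around the centres of the 31 HNF4α peaks, the consensus occurred in 9, or 29.0% (interval 16.1 to 46.6%), against 49.4% of the whole HNF4α list. It was present in 5 of the 8 HNF4α peaks that touched no HDAC3 or PROX1 peak, 62.5% (interval 30.6 to 86.3%). The share over all such HNF4α peaks of the list was not computed. Among the 5 was the Cps1 intron 1 peak with a score of 20.3, which held an exact core. The HDAC3-only peak of Arg1 held a consensus match with 2 mismatches and no HNF4α peak.

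**Figure D4:**
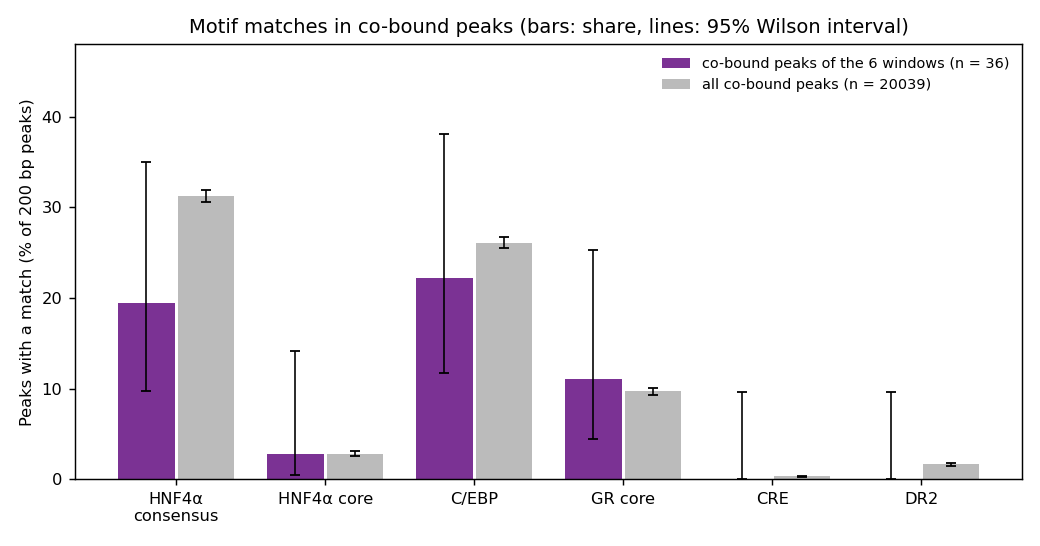
Share of 200 bp co-bound peaks with at least 1 motif match (y axis, %) in the 6 windows and in all co-bound peaks, with 95% Wilson intervals as lines. The HNF4α consensus bar is 19.4% against 31.2%, and CRE and DR2 have 0 matches in the 36 peaks.

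Other motifs were counted because the urea cycle genes are known targets of hormones and of C/EBP factors. The C/EBP motif TTGCNNAA occurred in 8 of the 36 co-bound peaks, 22.2% (interval 11.7 to 38.1%), against 26.1% of all co-bound peaks. It was found in 6 of the 21 peaks with HNF4α, or 28.6%, against 27.5% of all co-bound peaks with HNF4α, among them the strongest peaks of Cps1 and Asl. Slc25a15 held 3 of the 8, Cps1 and Asl 2 each and Arg1 1. The glucocorticoid receptor core ACANNNTGT occurred in 4 of 36, 11.1% (interval 4.41 to 25.3%), against 9.70%. The 4 were the Cps1 peak at 18.9 kb and the Ass1 peaks at 10.8 and 6.74 kb upstream and the Slc25a15 peak at 17.1 kb. The cyclic AMP response element TGACGTCA and the DR2 element bound by Rev-erb, searched over 16 bases with up to 3 mismatches, occurred in none of the 36. Over all co-bound peaks they occurred in 0.334% and 1.66%, so that 0 of 36 was not distinguishable from the background at this number of peaks. The upper bound of the interval was 9.64% for each. Base composition was close to that of the whole list, with a median GC content of 46.2% against 46.5% of all co-bound peaks.

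Genes that supply or use the cycle were taken as a wider list of 16, covering ornithine transcarbamylase (Otc), other carriers, bicarbonate supply, glutamate and glutamine handling and transport. Of these, 13 had a co-bound peak (38.4% of all genes did) and 12 had one with HNF4α (31.1% of all genes). A co-bound peak within 1 kb of the TSS was present at 3 (5.06% of all genes) and a PROX1-only peak at 9 (25.2%). None of the 16 had an HDAC3-only peak, where 7.40% of all genes did. HNF4α was present at 37 of their 57 co-bound peaks, 64.9% (interval 51.9 to 76.0%), near the 61.3% of all co-bound peaks. It was present at 5 of their 13 PROX1-only peaks, 38.5%, near the 36.7% of all PROX1-only peaks. The most HNF4α-bound co-bound peaks were at Aqp9, a glycerol and urea channel, with 8, at Slc25a13, the aspartate-glutamate carrier citrin, with 7, and at Car5a, the mitochondrial carbonic anhydrase, with 4. Glud1, Slc7a2 and Oat had 3 each. The 3 genes with no co-bound peak were Slc25a2, Rhbg and Slc14a1. Otc, the remaining enzyme of the cycle, had a co-bound peak with HNF4α centred 2 bp past its TSS, with a score of 57.0, another 12.7 kb upstream with a score of 44.8, and a PROX1-only peak with HNF4α at 7.44 kb into the gene. Among the cycle enzymes and the carrier Slc25a15, Nags and Otc were thus the 2 with HNF4α at a co-bound promoter peak.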

How the data were processed

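HDAC3 (3 libraries), PROX1 (3) and HNF4α (2) were immunoprecipitated from mouse liver. According to the study's methods and the submitters' processing notes, the authors mapped the reads (Bowtie 0.12.7, mm9), removed duplicates, pooled replicates and called peaks with HOMER against IgG. The deposited files are lists of peak positions for HDAC3 and PROX1, and positions with a HOMER score for HNF4α, whose scaling is not given in the sources used here. The study describes filtering HNF4α peaks on the knockout; whether the deposited list was filtered is not given. The methods state 3 mice per ChIP, whereas the labels list 2 HNF4α samples.

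Peaks were read in Python 3.11.15 and assigned to windows of GENCODE genes; intervals used scipy 1.17.1. The overlap and motif searches were tested on simulated data, and the assignment of peaks to windows was not. All 6 genes, their promoter peaks and their strongest HNF4α-bound co-bound peaks were named by rule, as were wider-list genes with 0 co-bound peaks or the 4 highest counts, ties included. Members and lists were chosen with earlier results of these data known. Depth per sample is unknown. Other overlaps, windows, HNF4α score limits, merging of near peaks, motif settings and leaving out each gene were tried. The sequence of 1 promoter peak is not reported here. H3K27Ac, knockout libraries and RNA were not analysed here.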

Additional observations from a re-analysis of the deposited data

How the results depend on the processing

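Of 79 recomputed values, 68 stayed within 1.5 times the count or within the interval of the share. Many of the 79 came from leaving out each gene in turn, which could change most counts only a little. Ending the window at the gene end changed no value. The tally is therefore not a measure of robustness. Requiring HNF4α to cover 75% of a peak left 13 co-bound peaks with HNF4α, or 36.1%, where the share of all co-bound peaks was 32.5%. Using only HNF4α peaks above the median score gave 38.9%, against 40.0% of all. A window of 10 kb upstream left 23 co-bound peaks, 12 of them with HNF4α, and 4 PROX1-only peaks. PROX1-only peaks also numbered 4 when the gene had to have the nearest coding TSS, or without Asl, and HDAC3-only peaks numbered 0 without Arg1. The consensus share was 2.78% with 1 mismatch fewer (7.15% of all co-bound peaks) and, in a setting chosen after seeing the data, 63.9% with 1 mismatch more (75.5% of all). All 6 genes kept an HNF4α-bound co-bound peak under each window, overlap, score and merging alternative. No paired analysis was possible because the lists are pooled and no result comes from a test, and for the same reason no replicate could be left out. Without read counts, binding too weak to be listed cannot be told from none, and a co-bound peak may hold 1 factor at a density under that factor's own limit.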
